A study of Rattus norvegicus with 72 samples.

Results

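The comparison set dorsal root ganglia taken 28 h after a proximal sciatic nerve lesion against ganglia taken 28 h after sham surgery. Its members were 6 of the 72 arrays of the series, 3 labelled proximal and 3 labelled sham, chosen by lesion and hour alone. The arrays of each group carried the letters a, b and c, which are used here as names. The labels give the tissue as total RNA from the L4 and L5 ganglia, the strain as Wistar and the age as 8 to 12 weeks, and the lesion as a crush of the sciatic nerve. Proximal and distal name where on the nerve the lesion lay, and the labels give no distance. What the sham surgery consisted of, whether an array held 1 animal or a pool, and whether arrays of a group came from different animals were not given in the labels. The p-values below therefore measure the spread between arrays, which may be technical. A ganglion is a mixture of cells, and in whole tissue fewer cells of a type and less RNA per cell cannot be told apart.

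A dorsal root ganglion holds the cell bodies of sensory neurons, each wrapped in satellite glia, together with Schwann cells, fibroblasts, vessels and resident macrophages. When the peripheral axon is damaged, signals carried back along it change transcription in the cell body: the factors Atf3, Jun and Sox11 and many growth-associated proteins rise, and ion channels and receptors of the uninjured state fall. Cytokines that act through the gp130 receptor and STAT3, chemokines and macrophages take part in that response, and interferons induce a separate set of antiviral and antigen-presenting genes.

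Values are log2 intensities made by the authors with RMA. A step of 1 is a 2-fold difference. Array medians were 6.94 to 7.01 in the 6 arrays. Each of 12276 tested genes was represented by its brightest probe set. A gene was called at a limma adjusted p (Benjamini-Hochberg over all tested genes) under 0.05, with the spread estimated over all 24 groups of the series. Sensory neuron markers averaged 11.19, 11.18 and 11.20 in the proximal arrays and 11.33, 11.49 and 11.45 in the sham arrays. By the level of dim probe sets the 72 arrays were clustered into 4 sets, a number that was chosen, and all 6 arrays lay in the same one. These clusters are called technical sets here, and what separates them was not tested. Among them was a set of distal arrays only, so set and lesion partly coincide.

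The 3 arrays of each group were not equally alike. Over all tested genes the SD of the difference between 2 arrays was 0.126 for sham b and c and 0.143 for proximal b and c. These were the smallest of all 83 pairs of arrays within a group in the series, whose median was 0.274. Proximal a differed from proximal b and c by an SD of 0.266 and 0.272, and sham a from sham b and c by 0.266 and 0.253. The labels do not say whether b and c are separate animals. The main counts are therefore also given with b and c averaged into 1 array per group, an alternative chosen after seeing the data. Sham a also stood apart in single injury genes: Atf3 read 10.15 there, against 7.96 and 7.83 in sham b and c. Among all tested genes 7 were at least 1 log2 unit higher, and 47 at least 1 lower, in sham a than in the mean of sham b and c.

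At 28 h, 378 genes were higher (3.08% of those tested) and 171 lower (1.39%) after the proximal lesion, 549 in all (4.47%). A difference of at least 2-fold was called for 160 genes (1.3%), of which 149 were higher (1.21%) and 11 lower (0.0896%). In 347 of the 378 higher and all 171 lower genes the proximal and sham arrays did not overlap, which was also true of 32.8% of all tested genes. With b and c averaged, 159 genes were called (1.3%), 133 higher (1.08%) and 26 lower (0.212%). A fit of only the 6 arrays called 1605 genes (13.1%), 674 higher (5.49%) and 931 lower (7.58%). Leaving out 1 array changed the counts unevenly: 557 genes were called without proximal a (4.54%, with 409 or 3.33% higher), 270 without proximal b, 272 without proximal c, 355 without sham a, 374 without sham b and 359 without sham c. The call of 180 higher and 53 lower genes held in all 6 of these fits, and 131 and 25 of them were also called with b and c averaged.

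**Figure D1:**
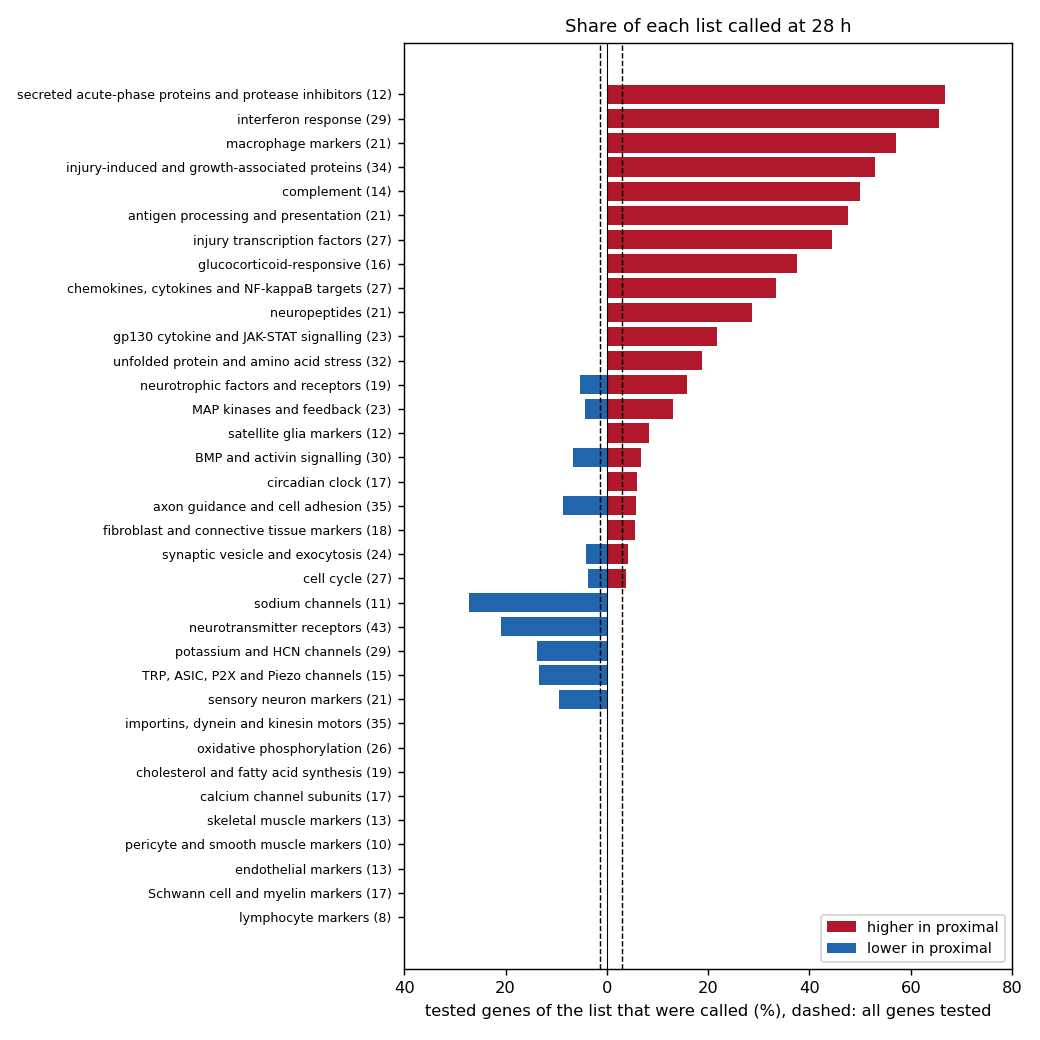
Share of the tested genes of each list called at 28 h, in percent on the x axis, higher to the right and lower to the left, with the number of genes tested in parentheses and lists with fewer than 5 tested genes not drawn. Dashed lines mark 3.08% and 1.39% over all genes; acute-phase proteins (8 of 12) and interferon response genes (19 of 29) reach furthest to the right, and sodium channels (3 of 11) furthest to the left.

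Array a split the higher genes. The rise of each gene in proximal a was divided by its mean rise in b and c, both taken against the sham mean. This ratio was under 0.25 in 76 of the 378 higher genes, between 0.25 and 0.75 in 159, and over 0.75 in 143, with a median of 0.658. For the 171 lower genes it was under 0.25 in 0, over 0.75 in 109, with a median of 0.801. These sets were formed after the values were seen and from the same arrays, so their counts of calls at 28 h are descriptions. Of the 76 genes with the lowest ratios, 31 overlapped the sham range, 0 were called in array a alone (0 also at an unadjusted p under 0.05, limma) and 23 with b and c averaged. Of the 143 with the highest, 48 were called in array a alone (background 0.432%) and 72 with b and c averaged. The first set held all 19 called genes of the interferon response list, and the second held 11 of the 12 called injury transcription factors and 15 of the 18 called growth-associated genes.

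**Figure D2:**
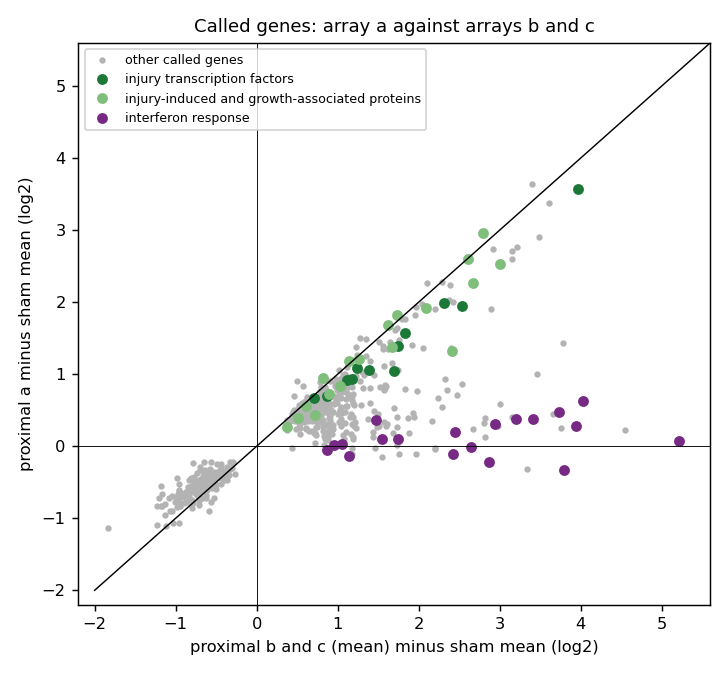
Each called gene by its rise over the sham mean in proximal b and c (x axis, mean, log2) and in proximal a (y axis, log2); the diagonal marks equal values. Called injury transcription factors and growth-associated genes lie mostly near the diagonal, and the 19 called interferon response genes lie near 0 on the y axis.

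Promoters of members of both sets are shown. The ratio itself formed the sets, and the set with ratios under 0.25 held all 19 called interferon genes. The motif shares below therefore describe these sets and are not a test. Of the called interferon genes 16 had a window, and 10 of those (62.5%) held an interferon-stimulated response element core. The windows are the 250 bases before the RefSeq transcription start (build GRCr8). Searched on both strands were an interferon-stimulated response element core (ISRE core, GAAA followed after any 2 bases by GAAA), a STAT site (TTCNNNGAA), an AP-1 site (TGACTCA) and a cyclic AMP response element (CRE, TGACGTCA). Of the 76 higher genes with ratios under 0.25, 59 had a window, and 22 of those (37.3%) held an ISRE core, against 2 of 118 (1.69%) of the set with ratios over 0.75, 251 of 10127 (2.48%) of all tested genes with a window and 902 of 27457 (3.29%) of all windows. A STAT site stood in 20.3% and 6.78% of the 2 sets and in 5.86% of tested genes. An AP-1 site stood in 13.6%, 4.24% and 3.32%, and a CRE in 0 of 59, in 4.24% and in 2.9%. Matches of different motifs can overlap, and a match says only that these letters are present. The first 3 windows belong to interferon-induced genes: Ifit3, an antiviral RNA-binding protein, Gbp2, a guanylate-binding GTPase, and Oas1a, which makes the activator of RNase L. The others belong to Il6, a cytokine that signals through gp130, Vgf, a neuronal secreted peptide precursor, and Reg3b, a secreted lectin. Capitals mark motif matches, written 5′ to 3′ on the strand of the gene. In Ifit3 and Gbp2 they mark an ISRE core and an AP-1 site, in Oas1a a STAT site and 2 overlapping ISRE cores, in Il6 and Vgf a CRE, and in Reg3b a STAT site.
Ifit3, chr1:241527076-241527325, plus strand: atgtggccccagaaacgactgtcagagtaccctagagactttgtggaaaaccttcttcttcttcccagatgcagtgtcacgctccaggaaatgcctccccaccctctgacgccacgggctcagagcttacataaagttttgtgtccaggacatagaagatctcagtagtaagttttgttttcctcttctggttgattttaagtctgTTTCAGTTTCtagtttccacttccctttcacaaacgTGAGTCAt
Gbp2, chr2:234005477-234005726, plus strand: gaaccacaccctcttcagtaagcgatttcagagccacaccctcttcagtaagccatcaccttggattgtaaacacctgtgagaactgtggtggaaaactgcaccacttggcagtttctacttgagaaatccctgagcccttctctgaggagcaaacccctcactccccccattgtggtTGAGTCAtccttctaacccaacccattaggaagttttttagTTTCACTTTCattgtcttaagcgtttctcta
Oas1a, chr12:41330216-41330465, plus strand: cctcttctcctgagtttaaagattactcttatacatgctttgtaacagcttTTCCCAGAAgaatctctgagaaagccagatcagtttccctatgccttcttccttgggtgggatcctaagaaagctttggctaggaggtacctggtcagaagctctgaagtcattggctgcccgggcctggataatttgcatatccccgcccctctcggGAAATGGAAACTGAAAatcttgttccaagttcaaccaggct
Il6, chr4:5894576-5894825, minus strand: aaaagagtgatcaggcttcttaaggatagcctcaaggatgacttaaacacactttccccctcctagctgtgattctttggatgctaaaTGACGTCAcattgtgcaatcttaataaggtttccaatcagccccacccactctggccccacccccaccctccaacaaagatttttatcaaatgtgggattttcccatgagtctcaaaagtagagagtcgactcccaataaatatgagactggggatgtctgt
Vgf, chr12:25277021-25277270, minus strand: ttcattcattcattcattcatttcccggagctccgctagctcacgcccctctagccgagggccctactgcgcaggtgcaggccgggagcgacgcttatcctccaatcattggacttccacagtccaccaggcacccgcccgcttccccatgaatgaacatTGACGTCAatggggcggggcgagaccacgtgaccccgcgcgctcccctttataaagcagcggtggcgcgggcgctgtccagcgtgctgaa
Reg3b, chr4:112419526-112419775, plus strand: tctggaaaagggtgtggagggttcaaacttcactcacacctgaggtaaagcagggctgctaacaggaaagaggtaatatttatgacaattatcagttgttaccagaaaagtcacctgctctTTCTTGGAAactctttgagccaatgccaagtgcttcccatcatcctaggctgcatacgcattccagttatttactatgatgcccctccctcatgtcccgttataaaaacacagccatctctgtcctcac

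Of 27 tested injury-induced transcription factors 12 were higher and 0 were lower (0 also at an unadjusted p under 0.05, limma), with a median difference of 0.75 against -0.03 over all tested genes. Atf3 read 12.22, 12.62 and 12.62 in proximal a, b and c and 10.15, 7.96 and 7.83 in sham a, b and c, a 14.3-fold difference (log2 difference 3.84, SE 0.51, adjusted p = 2.6e-07). Atf3 is the stress-induced factor used most widely to mark injured sensory neurons. All proximal arrays were well above all sham arrays, and the spread lay in sham, where a was higher than b and c. Sox11 read 7.43, 8.04 and 7.98 in proximal a, b and c and 5.74, 5.18 and 5.52 in sham a, b and c (5.06-fold, log2 difference 2.34, SE 0.33, adjusted p = 7.12e-07). Sox11 is a factor of neuronal differentiation that returns after axon injury. Jun read 11.30, 11.41 and 11.58 in proximal a, b and c and 10.49, 10.30 and 10.34 in sham a, b and c (log2 difference 1.05, SE 0.24, adjusted p = 0.0034). Jun is a partner of Atf3 in AP-1 dimers, and its groups did not overlap.

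Fos read 8.36, 8.70 and 8.67 in proximal a, b and c and 6.95, 6.12 and 6.05 in sham a, b and c (log2 difference 2.21, SE 0.48, adjusted p = 0.0018). Fos is an immediate-early AP-1 factor, and its dimmer probe set differed by only 0.049 (unadjusted p = 0.734), so its 2 probe sets disagreed. Nfil3 read 8.70, 8.99 and 8.93 in proximal a, b and c and 7.51, 6.91 and 6.96 in sham a, b and c (log2 difference 1.75, SE 0.23, adjusted p = 1.2e-07), and Crem read 10.02, 10.28 and 10.46 in proximal a, b and c and 8.91, 8.55 and 8.43 in sham a, b and c (log2 difference 1.63, SE 0.25, adjusted p = 6.01e-06). Nfil3 is a leucine-zipper repressor and Crem the cyclic AMP responsive modulator. Cebpd, Maff, Smad1, Junb, Myc and Klf6 made up the rest, with differences of 1.48, 1.28, 1.10, 0.81, 1.19 and 0.70. Egr1 and Stat3, both well-known members, were not called: Egr1 differed by 0.58 (adjusted p = 0.561) and Stat3 by 0.25 (adjusted p = 0.26). In a fit of only the 6 arrays both passed, with an adjusted p of 0.0462 and 0.0433. The count was 11 without proximal b, 11 without proximal c, 10 without sham b and 15 without proximal a; it was 6 with b and c averaged, and 3 in array a alone. Klf6 was not called without proximal a, proximal b, proximal c, sham b or sham c (adjusted p up to 0.136). Myc was not called without sham b (adjusted p = 0.0525).

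**Figure D3:**
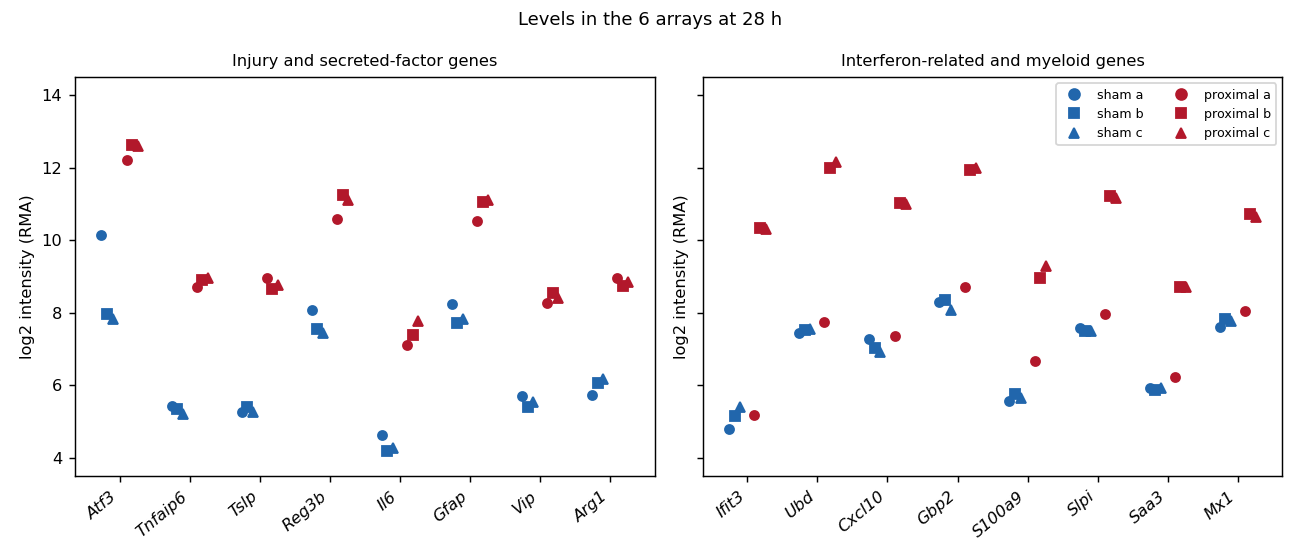
Log2 intensity (y axis) of 16 genes in the 3 sham (blue) and 3 proximal (red) arrays at 28 h, marker shape giving the array letter. In the left panel all proximal arrays lie above all sham arrays; in the right panel proximal a lies near sham and proximal b and c lie high.

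Growth-associated and injury-induced proteins gave 18 higher and 0 lower of 34 tested (0 lower also at an unadjusted p under 0.05, limma), with a median of 0.61. Arg1 read 8.95, 8.75 and 8.84 in proximal a, b and c and 5.75, 6.07 and 6.19 in sham a, b and c (7.2-fold, log2 difference 2.85, SE 0.28, adjusted p = 6.48e-11). Arg1 is arginase, which supports polyamine synthesis in regenerating axons. Flrt3 read 9.83, 10.34 and 10.25 in proximal a, b and c and 7.65, 7.15 and 7.08 in sham a, b and c (7.18-fold, log2 difference 2.84, SE 0.33, adjusted p = 8.72e-09). Flrt3, a membrane protein that binds latrophilins and Unc5 receptors, was high in all proximal arrays. Gadd45a read 12.07, 12.45 and 12.50 in proximal a, b and c and 10.12, 9.68 and 9.63 in sham a, b and c (5.79-fold, log2 difference 2.53, SE 0.33, adjusted p = 1.43e-07). Gadd45a is a stress-induced growth arrest gene, and sham a was again its highest sham array.

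Csrp3 read 9.06, 8.99 and 9.15 in proximal a, b and c and 6.50, 6.16 and 6.71 in sham a, b and c (6.1-fold, log2 difference 2.61, SE 0.37, adjusted p = 8.93e-07). Csrp3 is a LIM protein best known from muscle. Of 13 tested skeletal muscle markers 0 were called in these arrays (0 also at an unadjusted p under 0.05, limma). Whether muscle RNA had a part in the Csrp3 values was not tested. Stmn4 (difference 1.65), a tubulin-binding stathmin, Tubb6 (1.57), a beta-tubulin, Mmp16 (1.76), a membrane metalloprotease, Gadd45g (2.03) and Ecel1 (1.25), a neuronal endopeptidase, rose in every proximal array. The classical growth cone protein Gap43 was already bright: it read 12.45, 12.59 and 12.53 in proximal a, b and c and 12.08, 12.26 and 12.22 in sham a, b and c (log2 difference 0.34, SE 0.09, adjusted p = 0.0155). Gap43 was not called without proximal b, proximal c or sham a (adjusted p up to 0.141). Sprr1a read 7.30, 7.01 and 6.78 in proximal a, b and c and 6.25, 6.16 and 6.02 in sham a, b and c, and was not called (log2 difference 0.89, SE 0.29, adjusted p = 0.0741). Sprr1a is a small proline-rich protein of injured neurons, its groups did not overlap, and 6 alternatives called it, among them a fit of only the 6 arrays (adjusted p = 0.00472) and another quantile normalization (adjusted p = 0.0151). Over the 6 fits that leave out an array the list had 13 to 15 higher members, it had 12 with b and c averaged and 9 in array a alone. The heat shock protein Hspb1, the urokinase receptor Plaur, the GTPase Rac2 and the amino acid transporter Slc7a5 were the called members that depended most on single arrays, with differences of 0.59, 0.96, 0.63 and 0.87. Hspb1, Plaur and Slc7a5 were not called in any fit that left out 1 array (adjusted p up to 0.396). Rac2 was not called without proximal b, proximal c, sham a, sham b or sham c (adjusted p up to 0.188).

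Secreted factors gave some of the largest rises. Tnfaip6 read 8.70, 8.90 and 8.96 in proximal a, b and c and 5.43, 5.35 and 5.2 in sham a, b and c (at least 10.5-fold, log2 difference 3.53, SE 0.33, adjusted p = 1.55e-11). Tnfaip6 encodes a hyaluronan-binding protein induced by tumour necrosis factor, and its sham level was below the filter level of 5.46, so the fold is a lower bound. Tslp read 8.96, 8.67 and 8.76 in proximal a, b and c and 5.27, 5.40 and 5.28 in sham a, b and c (at least 10.1-fold, log2 difference 3.48, SE 0.36, adjusted p = 2.1e-10). Tslp is an interleukin-7-like cytokine. Il6 read 7.13, 7.40 and 7.77 in proximal a, b and c and 4.63, 4.19 and 4.27 in sham a, b and c (at least 3.91-fold, log2 difference 3.07, SE 0.39, adjusted p = 1.09e-07). All 3 genes were high in each proximal array, array a included, and low in all sham arrays.

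Chemokines of the same list differed between arrays. Ccl2 read 9.88, 11.03 and 11.15 in proximal a, b and c and 9.41, 9.06 and 8.87 in sham a, b and c (log2 difference 1.57, SE 0.28, adjusted p = 0.000111), and Ccl7 read 6.92, 8.46 and 8.53 in proximal a, b and c and 6.65, 6.07 and 6.04 in sham a, b and c (log2 difference 1.72, SE 0.27, adjusted p = 6.01e-06). Both attract monocytes, and both were lower in proximal a than in b and c. Il1b, the inflammatory interleukin, read 6.24, 7.39 and 7.57 in the proximal arrays and 6.03, 5.89 and 5.96 in sham (log2 difference 1.10, SE 0.21, adjusted p = 0.000335). In all 9 of 27 chemokine and cytokine genes were higher and 0 lower (0 also at an unadjusted p under 0.05, limma), 8 to 11 with 1 array left out and 6 with b and c averaged. Among the rest, Il1r1, the interleukin-1 receptor, and the adhesion molecule Icam1 differed by 1.19 and 0.82, and Nfkbia, the NF-kappaB inhibitor, by 0.90, which became -0.21 against all sham arrays of the series pooled. Nfkbia was not called without proximal b, proximal c, sham a or sham c (adjusted p up to 0.296).

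Acute-phase proteins and protease inhibitors gave 8 higher of 12 tested, with a median of 0.97, which was 0.32 in array a alone. Reg3b read 10.60, 11.25 and 11.12 in proximal a, b and c and 8.09, 7.55 and 7.44 in sham a, b and c (9.81-fold, log2 difference 3.29, SE 0.36, adjusted p = 9.04e-10), and its relative Reg3a read 8.20, 9.05 and 9.33 and 6.54, 6.15 and 6.22 (log2 difference 2.56, SE 0.35, adjusted p = 5.79e-07). Timp1 read 11.38, 12.45 and 12.52 in proximal a, b and c and 9.76, 10.24 and 10.19 in sham a, b and c (log2 difference 2.05, SE 0.23, adjusted p = 4.38e-09). Timp1 inhibits metalloproteases. These 3 were higher in every proximal array. By contrast Slpi read 7.98, 11.23 and 11.17 in proximal a, b and c and 7.59, 7.51 and 7.52 in sham a, b and c (log2 difference 2.59, SE 0.37, adjusted p = 1.21e-06), and Saa3 read 6.23, 8.73 and 8.71 and 5.93, 5.88 and 5.92 (log2 difference 1.98, SE 0.31, adjusted p = 5.89e-06). Slpi is a secreted inhibitor of leukocyte proteases and Saa3 a serum amyloid. Slpi exceeded the sham mean by 0.44 in array a and by 3.66 in b and c, and Saa3 by 0.32 and 2.81. A2m, a broad protease inhibitor, Cp, the copper protein ceruloplasmin, and Serping1, which inhibits the first complement protease, differed by 1.05, 0.83 and 0.88. Cp was not called without proximal b or proximal c (adjusted p up to 0.0584). Serping1 was not called without proximal b, proximal c or sham c (adjusted p up to 0.143). The count was 6 without proximal b or c, and 5 with b and c averaged.

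Of 23 tested genes of gp130 and JAK-STAT signalling 5 were higher and 0 lower (0 also at an unadjusted p under 0.05, limma): Il6, Socs3, Ptpn2, Cish and Jak2. Socs3 read 7.42, 8.17 and 8.22 in proximal a, b and c and 6.50, 6.77 and 6.61 in sham a, b and c (log2 difference 1.31, SE 0.20, adjusted p = 3.21e-06). Socs3 is the feedback inhibitor of gp130 signalling, and it rose by 0.79 in array a and by 1.57 in b and c. Ptpn2, a phosphatase of JAK kinases, read 8.53, 8.91 and 8.99 and 7.84, 7.77 and 7.84 (log2 difference 0.99, SE 0.20, adjusted p = 0.000669). Cish, another feedback inhibitor, and the kinase Jak2 differed by 0.83 and 0.99. Jak2 was not called without proximal b, proximal c or sham a (adjusted p up to 0.145). The list median was 0.10.

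Neuropeptides did not depend on single arrays: 6 of 21 tested were higher and 0 lower (3 lower at an unadjusted p under 0.05, limma), in each of the 6 fits that leave out an array and with b and c averaged, and 5 were called in array a alone. Vip read 8.28, 8.54 and 8.41 in proximal a, b and c and 5.71, 5.39 and 5.55 in sham a, b and c (7.25-fold, log2 difference 2.86, SE 0.21, adjusted p = 6.51e-15). Adcyap1 read 12.32, 12.31 and 12.41 in proximal a, b and c and 10.40, 10.39 and 10.38 in sham a, b and c (3.87-fold, log2 difference 1.95, SE 0.17, adjusted p = 9.81e-13). Vip and Adcyap1, the precursor of PACAP, encode related peptides that act through shared receptors. Gal read 10.41, 10.21 and 10.32 in proximal a, b and c and 9.22, 8.81 and 8.71 in sham a, b and c (2.64-fold, log2 difference 1.40, SE 0.15, adjusted p = 1.45e-09). Npy read 9.20, 8.99 and 9.11 in proximal a, b and c and 7.86, 7.71 and 7.90 in sham a, b and c (2.42-fold, log2 difference 1.28, SE 0.19, adjusted p = 1.74e-06). Galanin and neuropeptide Y are the peptides long known to appear in axotomised sensory neurons. Vgf read 11.40, 11.55 and 11.65 in proximal a, b and c and 10.26, 9.81 and 9.81 in sham a, b and c (2.98-fold, log2 difference 1.57, SE 0.22, adjusted p = 5.99e-07). In all of these the proximal and sham arrays did not overlap. The ratio of the rise in array a to that in b and c was 0.88 to 1.12 for these 5. The list median was -0.04.

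Among neurotrophic factors and receptors 3 of 19 tested were higher and 1 lower (15.8% and 5.26%, against 3.08% and 1.39% of all tested genes). Bdnf read 9.28, 9.75 and 9.87 in proximal a, b and c and 7.69, 8.05 and 7.91 in sham a, b and c (log2 difference 1.75, SE 0.35, adjusted p = 0.000637). Bdnf, a neurotrophin that sensory neurons release, rose in each proximal array on its brightest probe set, while its dimmer probe set differed by 0.30 (unadjusted p = 0.00602). Gfra1, the GDNF co-receptor, read 10.86, 11.03 and 10.97 and 10.28, 10.42 and 10.37 (log2 difference 0.59, SE 0.14, adjusted p = 0.00628), and Gfra2, the neurturin co-receptor, read 9.66, 9.73 and 9.51 and 10.09, 10.26 and 10.20 (log2 difference -0.55, SE 0.12, adjusted p = 0.00268). These 2 co-receptors moved in opposite directions, and the dimmer probe set of Gfra2 differed by -0.35 (unadjusted p = 0.374). Fgf2, a fibroblast growth factor, differed by 0.73. Fgf2 and Gfra1 were not called without proximal b (adjusted p up to 0.0707).

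Interferon response genes gave the largest share of calls among lists of over 12 tested genes, and that share rested on arrays b and c. Of 29 tested, 19 were higher and 0 lower (0 also at an unadjusted p under 0.05, limma), with a median of 1.06. The median was 1.47 without proximal a and 0.08 in array a alone, where 0 were called (0 also at an unadjusted p under 0.05, limma). Ifit3 read 5.2, 10.34 and 10.31 in proximal a, b and c and 4.79, 5.16 and 5.40 in sham a, b and c (at least 8.89-fold, log2 difference 3.5, SE 0.59, adjusted p = 3.28e-05). Array a lay within the sham range of Ifit3, and b and c lay far above it. Gbp2 read 8.72, 11.93 and 12.00 in proximal a, b and c and 8.30, 8.35 and 8.07 in sham a, b and c (6.25-fold, log2 difference 2.64, SE 0.40, adjusted p = 3.4e-06). Mx1 read 8.05, 10.72 and 10.66 in proximal a, b and c and 7.61, 7.84 and 7.79 in sham a, b and c (4.19-fold, log2 difference 2.07, SE 0.34, adjusted p = 1.67e-05). Mx1 is an antiviral dynamin-like GTPase.

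Cxcl10 read 7.36, 11.03 and 11.00 in proximal a, b and c and 7.28, 7.04 and 6.92 in sham a, b and c (6.58-fold, log2 difference 2.72, SE 0.46, adjusted p = 3.28e-05). Cxcl9 and Cxcl11, which share the receptor Cxcr3 with Cxcl10 and recruit T cells, read 6.49, 9.29 and 9.33 and 6.77, 10.12 and 10.22 in the proximal arrays and 5.75, 6.37 and 6.21 and 6.20, 6.08 and 6.15 in sham. Irf1 read 7.22, 9.40 and 9.54 in proximal a, b and c and 7.11, 7.03 and 6.93 in sham a, b and c (log2 difference 1.69, SE 0.28, adjusted p = 2.98e-05), and Irf7 read 8.20, 10.82 and 10.90 in proximal a, b and c and 7.85, 8.51 and 8.27 in sham a, b and c (log2 difference 1.76, SE 0.35, adjusted p = 0.000491). Both are interferon regulatory factors, and Irf7 in array a lay inside its sham range. Oas1a read 7.35, 9.01 and 8.96 in proximal a, b and c and 6.77, 7.33 and 7.63 in sham a, b and c (log2 difference 1.20, SE 0.28, adjusted p = 0.00486). Ubd read 7.74, 11.99 and 12.15 in proximal a, b and c and 7.46, 7.54 and 7.56 in sham a, b and c (8.61-fold, log2 difference 3.11, SE 0.45, adjusted p = 1.2e-06). Ubd, a ubiquitin-like protein induced by interferon-gamma and tumour necrosis factor, belonged to no list and was named as one of the 12 largest rises. In each of these genes b and c were close to each other and over 1 log2 unit above every sham array.

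The 19 called interferon genes all had ratios under 0.25. The others not yet named were Igtp, Rsad2, Isg15, Ifit2, Irgm, Usp18, Oasl, Isg20, Irf8 and Sp110, with differences of 2.40, 2.42, 1.84, 1.58, 1.10, 1.06, 0.72, 0.71, 0.64 and 0.56. Igtp and Irgm are immunity-related GTPases, Rsad2 is the antiviral viperin, and Isg15 is a ubiquitin-like modifier that Usp18 removes. With b and c averaged 9 were called, and 3 in a fit of only the 6 arrays (background 5.49%). The count was 10 without proximal b, 10 without proximal c, 11 without sham a, 15 without sham b, 17 without sham c and 22 without proximal a. The mean level of the list was 7.59, 9.37 and 9.45 in proximal a, b and c and 7.39, 7.56 and 7.55 in the sham arrays. All other proximal arrays of the series lay between 7.17 and 7.85, and all other sham arrays between 7.23 and 8.04. Proximal b and c at 28 h thus stood above every other proximal and sham array. What they share beyond lesion and hour was not tested. Oas1a, Usp18, Ifit2, Isg15 and Rsad2 were not called without proximal b, proximal c or sham a (adjusted p up to 0.303). Sp110 was not called without proximal b, proximal c or sham b (adjusted p up to 0.281). Oasl was not called without proximal b, proximal c, sham a or sham b (adjusted p up to 0.384). Irf8 and Isg20 were not called without proximal b, proximal c, sham a, sham b or sham c (adjusted p up to 0.469).

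Antigen processing genes followed the same arrays: 10 of 21 tested were higher and 0 lower (0 also at an unadjusted p under 0.05, limma), 0 of them in array a alone (1 at an unadjusted p under 0.05, limma). Psmb8 read 7.93, 9.56 and 9.82 in proximal a, b and c and 7.11, 7.36 and 7.20 in sham a, b and c (log2 difference 1.88, SE 0.29, adjusted p = 5.64e-06), and Psmb9 read 7.72, 10.10 and 10.19 in proximal a, b and c and 7.24, 7.51 and 7.24 in sham a, b and c (log2 difference 2.01, SE 0.38, adjusted p = 0.000271). Both are immunoproteasome subunits. Tap1 read 7.37, 9.34 and 9.53 in proximal a, b and c and 7.29, 7.64 and 7.5 in sham a, b and c (log2 difference 1.27, SE 0.30, adjusted p = 0.00356). Tap1, the peptide transporter, overlapped sham in array a. B2m, the bright invariant chain of MHC class I, differed by only 0.28 (adjusted p = 0.0225). RT1-S3 read 8.43, 10.55 and 10.75 in proximal a, b and c and 7.87, 8.71 and 8.77 in sham a, b and c (log2 difference 1.46, SE 0.31, adjusted p = 0.00105). RT1-S3 is a class I gene whose probes can share signal with its close relatives. The count was 3 without proximal b, 4 without proximal c, 6 without sham a and 2 with b and c averaged. Tap1 and RT1-S3 were not called without proximal b or proximal c (adjusted p up to 0.168). B2m was not called without proximal b, proximal c or sham a (adjusted p up to 0.369). The others were Ctss, RT1-DMb, RT1-Da, Psme1 and Psme2, which act in antigen cleavage, class II loading and the proteasome, with differences of 0.92, 0.73, 1.02, 0.75 and 0.50, and the dimmer probe set of Psme1 differed by -0.054. Ctss was not called without proximal b (adjusted p = 0.0784). RT1-Da and Psme2 were not called without proximal b, proximal c, sham a, sham b or sham c (adjusted p up to 0.421). Psme1 was not called without proximal b, proximal c or sham a (adjusted p up to 0.15).

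Macrophage markers gave 12 higher and 0 lower of 21 tested (0 also at an unadjusted p under 0.05, limma). Their mean level was 7.85, 8.49 and 8.58 in proximal a, b and c and 7.55, 7.53 and 7.51 in sham. Fcgr3a read 7.82, 9.30 and 9.48 in proximal a, b and c and 6.86, 7.08 and 7.18 in sham a, b and c (log2 difference 1.82, SE 0.26, adjusted p = 8.63e-07). Fcgr2b read 6.46, 8.61 and 9.0 in proximal a, b and c and 5.15, 5.01 and 4.93 in sham a, b and c (at least 5.89-fold, log2 difference 2.99, SE 0.49, adjusted p = 1.82e-05). Fcer1g read 9.69, 11.16 and 11.16 in proximal a, b and c and 9.29, 9.26 and 9.16 in sham a, b and c (log2 difference 1.44, SE 0.22, adjusted p = 5.89e-06). These are Fc receptor genes of myeloid cells, and each was above sham in array a and higher still in b and c. Aif1 read 8.25, 8.93 and 9.09 in proximal a, b and c and 7.13, 7.73 and 7.40 in sham a, b and c (log2 difference 1.34, SE 0.32, adjusted p = 0.00445), and Cd68 read 7.78, 8.41 and 8.59 in proximal a, b and c and 7.54, 7.75 and 7.68 in sham a, b and c (log2 difference 0.60, SE 0.17, adjusted p = 0.0255). The dimmer probe set of Aif1 differed by only 0.088 (unadjusted p = 0.808). Aif1 encodes the microglia and macrophage protein Iba1, and Cd68 is a lysosomal marker. Ptprc read 6.03, 6.77 and 7.29 in proximal a, b and c and 5.78, 5.61 and 5.58 in sham a, b and c (log2 difference 1.04, SE 0.23, adjusted p = 0.00194). Ptprc encodes CD45, found on all leukocytes. Aif1 and Ptprc were not called without proximal c (adjusted p up to 0.109). Cd68 was not called without proximal b, proximal c, sham a or sham c (adjusted p up to 0.358). The count was 9 without proximal b, 7 without proximal c, 9 without sham c, 5 with b and c averaged, and 0 in array a alone (4 at an unadjusted p under 0.05, limma).

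Neutrophil markers were mostly too dim to test, and S100a9 was called of the 2 that passed the filter. S100a9 read 6.67, 8.95 and 9.30 in proximal a, b and c and 5.58, 5.77 and 5.65 in sham a, b and c (6.23-fold, log2 difference 2.64, SE 0.36, adjusted p = 4.53e-07). S100a9, a subunit of calprotectin, exceeded the sham mean by 1.00 in array a and by 3.46 in b and c. Cxcr2 differed by 0.57 (adjusted p = 0.113), and was called without proximal a (adjusted p = 0.0315). Of 8 lymphocyte markers 0 were called (0 at an unadjusted p under 0.05, limma), and their list mean was 6.58, 6.49 and 6.42 in proximal a, b and c and 6.52, 6.36 and 6.57 in sham.

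Of 14 complement genes 7 were higher and 0 lower (0 also at an unadjusted p under 0.05, limma). C1qa read 9.23, 9.75 and 9.67 in proximal a, b and c and 8.37, 8.58 and 8.65 in sham a, b and c (log2 difference 1.02, SE 0.24, adjusted p = 0.00386), and C3 read 6.16, 7.70 and 8.02 in proximal a, b and c and 6.02, 6.44 and 6.46 in sham a, b and c (log2 difference 0.98, SE 0.27, adjusted p = 0.019). C1qa is a subunit of the initiator of the classical pathway, made by macrophages, and C3 is the central component. C1qb, C1qc, C1s, Serping1 and C5ar1 differed by 1.03, 0.99, 0.90, 0.88 and 0.62. C1qa was not called without proximal b (adjusted p = 0.0504). C3 was not called without proximal b, proximal c or sham a (adjusted p up to 0.447). C1qb and C1qc were not called without proximal b, proximal c, sham a or sham c (adjusted p up to 0.164). C1s and Serping1 were not called without proximal b, proximal c or sham c (adjusted p up to 0.143). C5ar1 was not called without proximal b, proximal c or sham b (adjusted p up to 0.163). The count was 0 without proximal b, 1 without proximal c, 4 without sham a, 3 without sham c and 0 with b and c averaged. The list means of macrophage, interferon, antigen processing and complement genes were all highest in proximal b and c, but array a differed between the lists. The ratio of array a to b and c was under 0.25 in 19 of 19 called interferon and 7 of 10 called antigen processing genes. It was under 0.25 in 4 of 12 called macrophage markers and 1 of 7 called complement genes. The part of macrophages in those results was not tested.

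The marker lists of other cell types gave few calls, and lists this short cannot show that these cells changed little. Gfap, the intermediate filament of reactive satellite glia, was the 1 called marker of 12 tested for satellite glia. That is 8.33%, against 3.08% of all tested genes called higher. Gfap read 10.52, 11.05 and 11.11 in proximal a, b and c and 8.25, 7.72 and 7.82 in sham a, b and c (7.79-fold, log2 difference 2.96, SE 0.23, adjusted p = 3.9e-14). Its call held in array a alone (adjusted p = 6.73e-07). Glul and Vim, which the same cells express, differed by 0.47 and 0.25 (adjusted p = 0.0982 and 0.0994). Both were called in a fit of only the 6 arrays (adjusted p = 0.00288 and 0.0174) and after another quantile normalization (adjusted p = 0.0137 and 0.00781). Of the other probe sets of Glul, 1 differed by 0.74 (adjusted p = 0.0477) and 1 by 0.92 (unadjusted p = 0.0427, limma). Of 18 fibroblast markers Mgp, matrix Gla protein, was the 1 called (5.56%). It read 12.62, 13.01 and 13.11 in proximal a, b and c and 11.80, 12.02 and 12.04 in sham a, b and c (log2 difference 0.96, SE 0.17, adjusted p = 7.32e-05).

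None of 17 Schwann cell, 13 endothelial, 10 pericyte, 4 erythrocyte and 3 adipocyte markers was called (limma). At an unadjusted p under 0.05, 2 Schwann cell markers were higher and 1 lower, 1 endothelial and 1 erythrocyte marker were higher, and 0 of the pericyte and adipocyte markers differed. Their medians were 0.01, 0.04, 0.07, 0.20 and 0.04.

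The called falls were smaller than the largest rises. Of 21 sensory neuron markers 2 were lower (9.52%, against 1.39% of all tested genes). None was higher (0 also at an unadjusted p under 0.05, limma), and the median was -0.15. In 12 of the 21 all proximal arrays lay below all sham arrays, as in 21% of all tested genes. Avil, the actin-binding protein advillin, read 12.68 to 12.76 in the proximal and 12.98 to 13.07 in the sham arrays (log2 difference -0.30, SE 0.07, adjusted p = 0.00627). Isl2, a homeobox factor, read 8.56, 8.28 and 8.24 in proximal a, b and c and 8.84, 9.52 and 9.24 in sham (log2 difference -0.84, SE 0.22, adjusted p = 0.0107). Rbfox3, the splicing factor known as NeuN, read 10.04, 9.78 and 9.89 and 10.63, 10.51 and 10.54 without passing the test (log2 difference -0.65, SE 0.21, adjusted p = 0.0694). A fit of only the 6 arrays called Rbfox3 (adjusted p = 0.00164), as did another quantile normalization (adjusted p = 0.0367). Avil was not called without proximal b or sham a (adjusted p up to 0.0558). Isl2 was not called without proximal b, proximal c or sham b (adjusted p up to 0.137).

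Sodium channels gave 3 lower and 0 higher of 11 (0 also at an unadjusted p under 0.05, limma). Scn10a read 10.95, 10.88 and 10.90 in proximal a, b and c and 11.52, 11.27 and 11.17 in sham a, b and c (log2 difference -0.41, SE 0.12, adjusted p = 0.0414). Scn11a read 10.96, 10.88 and 10.99 in proximal a, b and c and 11.81, 11.41 and 11.43 in sham a, b and c (log2 difference -0.61, SE 0.16, adjusted p = 0.0101). They encode Nav1.8 and Nav1.9, the tetrodotoxin-resistant channels of nociceptors. Scn1a read 10.43, 10.29 and 10.36 in proximal a, b and c and 11.05, 10.94 and 10.91 in sham a, b and c (log2 difference -0.60, SE 0.17, adjusted p = 0.019). In all of these sham a was the highest array, and the count was 0 without sham a and 0 without proximal b (limma; all 3 had an unadjusted p under 0.05 over all arrays). Scn10a was not called without proximal a, proximal b, proximal c, sham a or sham b (adjusted p up to 0.357). Scn11a was not called without proximal b or sham a (adjusted p up to 0.153). Scn1a was not called without proximal b, proximal c, sham a or sham b (adjusted p up to 0.113). Potassium channels gave 4 lower of 29, in each of the 6 fits that leave out an array, but 0 with b and c averaged. Kcna4 read 7.31, 6.89 and 6.95 in proximal a, b and c and 8.16, 8.18 and 8.09 in sham a, b and c (2.14-fold lower, log2 difference -1.09, SE 0.23, adjusted p = 0.00133). Kcna4 encodes Kv1.4, an A-type channel of small neurons. Kcns3, Kcnd3 and Kcnv1, all voltage-gated potassium channel subunits, differed by -0.72, -0.86 and -0.62. The other probe sets of Kcnd3 differed by -0.71 (unadjusted p = 0.242) and -0.035 (unadjusted p = 0.826). The 17 calcium channel subunits gave 0 calls (2 higher and 0 lower at an unadjusted p under 0.05, limma).

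Trpv1 read 10.17, 10.01 and 10.09 in proximal a, b and c and 10.69, 10.62 and 10.58 in sham a, b and c (log2 difference -0.54, SE 0.13, adjusted p = 0.00541). Trpv1, the capsaicin receptor, and Asic1, an acid-sensing channel (-0.61, adjusted p = 0.0418), were the 2 lower members of 15 TRP, ASIC, P2X and Piezo channels. Trpv1 was not called without proximal b (adjusted p = 0.0539). Asic1 was not called in any fit that left out 1 array (adjusted p up to 0.312). The other probe sets of Asic1 differed by -0.27 (unadjusted p = 0.329) and -0.29 (unadjusted p = 0.169).

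Neurotransmitter receptors, the list with the most tested genes, gave the most falls by number. Of 43 tested 9 were lower (20.9%, against 1.39% of all tested genes), a smaller share than among sodium channels (27.3%). None was higher (2 higher at an unadjusted p under 0.05, limma), and the median was -0.26. Htr1d read 7.93, 7.80 and 7.70 in proximal a, b and c and 8.74, 9.04 and 8.86 in sham a, b and c (2.1-fold lower, log2 difference -1.07, SE 0.17, adjusted p = 1.03e-05). Htr1d is the serotonin receptor targeted by triptans. Npy1r read 8.39, 8.38 and 8.62 in proximal a, b and c and 9.53, 9.42 and 9.42 in sham a, b and c (1.99-fold lower, log2 difference -0.99, SE 0.20, adjusted p = 0.000444). Npy1r is a receptor of neuropeptide Y, whose own gene rose. Adra2c read 7.81, 7.48 and 7.44 in proximal a, b and c and 8.52, 8.51 and 8.49 in sham a, b and c (log2 difference -0.93, SE 0.18, adjusted p = 0.000502). Gabbr2 read 10.63, 10.51 and 10.59 in proximal a, b and c and 11.35, 11.24 and 11.18 in sham a, b and c (log2 difference -0.68, SE 0.14, adjusted p = 0.00103). Adra2c is an inhibitory adrenergic receptor and Gabbr2 a subunit of the GABA-B receptor, and neither overlapped between groups. The dimmer probe set of Gabbr2 differed by -0.15 (unadjusted p = 0.634). The opioid-family receptors Oprk1 and Oprl1 differed by -0.79 and -0.54, and the glutamate and GABA receptor genes Grik1, Gabrb2 and Grm4 by -0.90, -0.79 and -0.63. The other probe sets of Oprk1 differed by 0.13 (unadjusted p = 0.753, limma) and -0.28 (unadjusted p = 0.31). Those of Oprl1 differed by -0.52 (unadjusted p = 0.0334, limma) and -0.26 (unadjusted p = 0.26). Grm4 was not called in any fit that left out 1 array (adjusted p up to 0.164). The count was 8 or 9 in the fits that leave out 1 array and 4 with b and c averaged.

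Among the 12 largest falls, Racgap1 read 8.29, 7.57 and 7.62 in proximal a, b and c and 9.56, 9.31 and 9.41 in sham a, b and c (3.03-fold lower, log2 difference -1.60, SE 0.19, adjusted p = 8.66e-09). Racgap1 is needed for cytokinesis, and it was the 1 gene called lower in array a alone (0.00815%). No other of 27 cell cycle genes was lower, and the inhibitor Cdkn1a was higher (1.04, adjusted p = 0.000395). Each is 3.7% of that list, against 1.39% lower and 3.08% higher over all tested genes. Smad9 read 8.85, 8.69 and 8.73 in proximal a, b and c and 9.89, 9.97 and 9.98 in sham a, b and c (log2 difference -1.19, SE 0.24, adjusted p = 0.000502), whereas Smad1 read 10.72, 10.92 and 11.00 and 9.90, 9.78 and 9.65 (log2 difference 1.10, SE 0.25, adjusted p = 0.0024). Both carry bone morphogenetic protein signals, and they moved in opposite directions. Their list gave 2 higher and 2 lower of 30 tested genes (6.67% each, against 3.08% and 1.39% of all tested genes). Of the others Fst, the activin antagonist follistatin, was higher (0.52) and Inhbb, an activin subunit, lower (-1.06). Fst was not called in any fit that left out 1 array (adjusted p up to 0.254). Inhbb was not called without proximal b, proximal c, sham a, sham b or sham c (adjusted p up to 0.188).

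Cdh10 read 7.15, 6.69 and 6.64 in proximal a, b and c and 7.94, 7.79 and 7.89 in sham a, b and c (log2 difference -1.04, SE 0.21, adjusted p = 0.000444), and LRRTM1 read 7.16, 7.07 and 6.54 in proximal a, b and c and 7.97, 8.01 and 7.97 in sham a, b and c (log2 difference -1.06, SE 0.23, adjusted p = 0.00196). Cdh10 is a cadherin and LRRTM1 a synaptic organiser. Rtn4rl1 read 9.26, 8.80 and 9.06 in proximal a, b and c and 9.81, 10.20 and 10.17 in sham a, b and c (log2 difference -1.02, SE 0.21, adjusted p = 0.000669). Rtn4rl1 is a relative of the Nogo receptor. Nptx1, a neuronal pentraxin, fell by 1.01, Six4, a homeobox factor, by 1.05, Pwwp3b by 1.00 and Spry3, a Sprouty inhibitor of growth factor signalling, by 1.11. LRRTM1 was not called without proximal c (adjusted p = 0.0585). Spry3 was not called in any fit that left out 1 array (adjusted p up to 0.135). Nptx1 and Pwwp3b were not called without proximal b (adjusted p up to 0.0507). Six4 was not called without proximal b or sham a (adjusted p up to 0.0553).

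**Figure D4:**
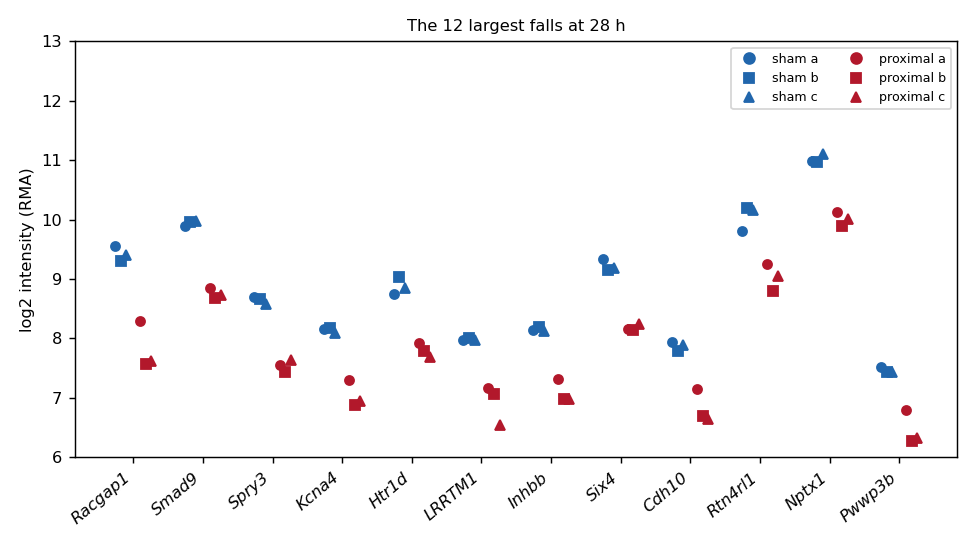
Log2 intensity (y axis) of the 12 genes with the largest called falls at 28 h in each sham (blue) and proximal (red) array, marker shape giving the array letter. Racgap1 falls furthest, by 1.60, and the other 11 by 1.19 or less; genes were chosen among those whose groups do not overlap.

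Of 32 unfolded protein and amino acid stress genes 6 were higher and 0 lower (0 also at an unadjusted p under 0.05, limma). They were Sesn2 (1.00), Slc3a2 (0.47), Trib3 (0.79), Ppp1r15a (0.73), Chac1 (0.49) and Slc7a5 (0.87), which are targets of the amino acid response. Sesn2 was not called without sham a (adjusted p = 0.0575). Trib3 was not called without proximal b, proximal c or sham b (adjusted p up to 0.0674). Ppp1r15a was not called without proximal b, proximal c or sham a (adjusted p up to 0.0802). Chac1 was not called without proximal b, proximal c or sham c (adjusted p up to 0.0696). Slc7a5 was not called in any fit that left out 1 array (adjusted p up to 0.126). The count was 2 without proximal b or proximal c, 3 without sham a and 1 with b and c averaged. Glucocorticoid-responsive genes gave 6 higher of 16 and 0 lower (0 also at an unadjusted p under 0.05, limma). Mt2A read 10.46, 12.12 and 12.15 in proximal a, b and c and 9.58, 9.66 and 9.54 in sham a, b and c (log2 difference 1.98, SE 0.31, adjusted p = 5.89e-06). Mt2A is a metallothionein that cytokines and zinc also induce, and array a lay between sham and arrays b and c. The kinase Sgk1 differed by 0.71. Sgk1 was not called without proximal b, proximal c, sham a, sham b or sham c (adjusted p up to 0.241). The count of the list was 3 without proximal b, proximal c, sham a or sham c, and 3 with b and c averaged.

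Of MAP kinases and feedback genes 3 of 23 were higher and 1 lower (13% and 4.35%, against 3.08% and 1.39% of all tested genes). Rasd1 read 9.21, 9.48 and 9.54 in proximal a, b and c and 7.54, 6.99 and 7.40 in sham a, b and c (log2 difference 2.10, SE 0.27, adjusted p = 1.47e-07). Rasd1 is a dexamethasone-induced Ras-like protein. The phosphatase Dusp1 and the G-protein regulators Rgs2 and Rgs4 differed by 0.99, 0.98 and -0.35. Dusp1 was not called without proximal b, proximal c, sham a, sham b or sham c (adjusted p up to 0.15). The other probe set of Rgs4 differed by -0.31 (unadjusted p = 0.384). Axon guidance and adhesion genes gave 2 higher (Flrt3 and Sema6a, 1.70) and 3 lower (Cdh10, Cntn4 and Flrt1) of 35. These shares were 5.71% and 8.57%, against 3.08% and 1.39% over all tested genes. Synaptic vesicle genes gave Syt4 higher (0.54) and LRRTM1 lower of 24. That is 4.17% in each direction, against 3.08% higher and 1.39% lower over all tested genes. Syt4 was not called in any fit that left out 1 array (adjusted p up to 0.11). Cntn4 was not called without proximal c, sham a or sham c (adjusted p up to 0.105). Flrt1 was not called without proximal b or sham a (adjusted p up to 0.131). Of 17 circadian clock genes Nfil3 was the 1 called (5.88%, against 3.08% of all tested genes called higher). None of 26 oxidative phosphorylation, 35 importin and motor or 19 cholesterol and fatty acid synthesis genes was called (limma). At an unadjusted p under 0.05 these lists gave 0, 5 and 1 genes.

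The neighbouring hours share no arrays with 28 h. The 24 h arrays lay in the same technical set as the 28 h arrays. The 18 h arrays lay in other sets, with array c apart from a and b in both groups. There c differed from a and b by an SD of 0.57 and 0.61 in sham and 0.62 and 0.68 in proximal. Hour and technical set cannot be told apart in a difference between 18 h and 28 h. At 24 h, 148 genes were called (1.21%), 119 higher (0.969%) and 29 lower (0.236%) after the proximal lesion. At 18 h it was 185 (1.51%), with 150 higher (1.22%) and 35 lower (0.285%). Of the 378 genes higher at 28 h, 113 were also higher at 24 h, which is 29.9% of the 28 h list and 95% of the 24 h list. At 18 h the overlap was 109 genes, 28.8% and 72.7%. For the lower genes it was 23 of 171 at 24 h (13.5% and 79.3%) and 20 at 18 h (11.7% and 57.1%). The median difference of the 378 was 0.86 at 28 h, 0.49 at 24 h and 0.41 at 18 h, and that of the 171 was -0.62, -0.39 and -0.26; the 28 h values chose these genes, so only the other hours describe them independently. Of the 143 higher genes with ratios over 0.75, 78 were called at 24 h and 74 at 18 h. Of the 76 with ratios under 0.25, 0 were called at either hour (9 at 24 h and 6 at 18 h at an unadjusted p under 0.05, limma).

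Several of the largest rises were also present at the earlier hours. From 18 h over 24 h to 28 h, the difference of Atf3 was 3.89, then 3.15, then 3.84. Sox11 gave 2.39, 2.33 and 2.34, Vip 2.50, 2.53 and 2.86, and Reg3b 3.35, 2.92 and 3.29. Npy, at 0.50, 0.52 and 1.28, and Arg1, at 1.68, 1.80 and 2.85, had their highest of these values at 28 h, but the tests of the differences between hours were not passed. Ifit3 gave -0.15, 0.25 and 3.5, and Ubd -0.08, -0.06 and 3.11. None of the interferon list was called at 24 h or 18 h (1 gene at each hour at an unadjusted p under 0.05, limma).

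**Figure D5:**
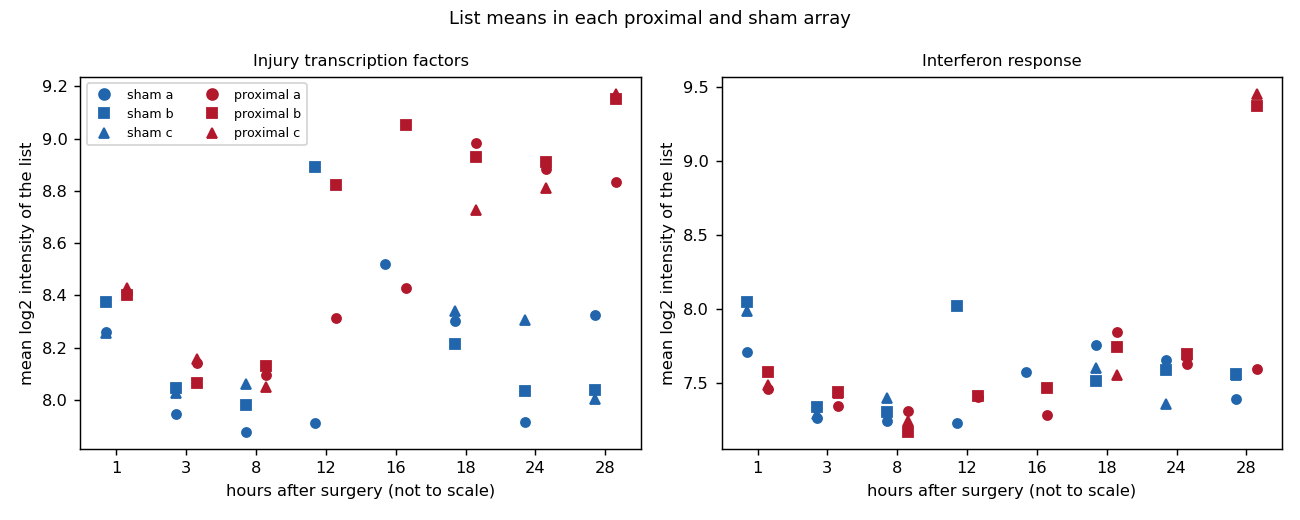
Mean log2 intensity of the injury transcription factors (left) and of the interferon response genes (right) in each sham (blue) and proximal (red) array, by hour after surgery on an ordinal axis, marker shape giving the array letter. In the injury factors all proximal arrays lie above all sham arrays at 18, 24 and 28 h; in the interferon list only proximal b and c at 28 h, at 9.37 and 9.45, leave the range of the other arrays.

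The difference between hours was tested directly. Against 24 h, the proximal effect at 28 h was more positive for 2 genes (0.0163%), Ubd and Saa3, and more negative for 0 (25 at an unadjusted p under 0.05, limma). Against 18 h, where the technical sets differed, it was more positive for 15 genes (0.122%) and more negative for 0 (357 at an unadjusted p under 0.05, limma). The 15 included Ifit3, Irf7 and Mx1 of the interferon list, the myeloid genes S100a9 and Fcgr3a, and Slpi, Ubd and Saa3, and 8 of them had ratios under 0.25. These counts were 65 and 85 without proximal a, and 0 and 0 without any 1 of the other 5 arrays; at an unadjusted p under 0.05 those 5 fits gave 99 to 157 genes against 24 h and 396 to 568 against 18 h (limma). With b and c averaged they were also 0 and 0 (91 and 375 at an unadjusted p under 0.05, limma).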

How the data were processed

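Gene expression in rat dorsal root ganglia was measured on 72 Affymetrix arrays in 24 groups by lesion and hour. The authors made the values with RMA, per the submitters' processing notes (no version is stated there), and deposited log2 intensities for 31099 probe sets. RMA subtracts background, quantile-normalizes and summarizes probes, so it shrinks differences of dim genes and hides shifts common to all genes. Probe sets carried 1 symbol in 20826 cases, several in 436 and none in 9780, with 57 controls left out. Of the named ones 20758 matched a RefSeq gene. Each of 14217 genes kept its probe set with the highest mean, and 12276 genes with a mean at or above the 25th percentile of probe sets (5.46) were tested.

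Each comparison was fitted with limma 3.58.1 in R 4.3.3, as a mean per group over all 72 arrays (48 residual degrees of freedom, eBayes with trend). Tests were two-sided, and adjusted p is Benjamini-Hochberg over the 12276 genes. A fold against a group whose mean lay below 5.46 was computed against that level and is given as "at least". Precision is limited by how many arrays each group has. The letters a, b and c recur in both groups compared but did not meet the rule for pairing. Deviations of same-lettered proximal and sham arrays correlated at 0.297, 0.161 and 0.0872, and the rule asked for over 0.1 in each. Proximal a correlated at -0.27 and -0.20 with sham b and c, and sham a at -0.24 and -0.22 with proximal b and c. Proximal b with sham c gave 0.23, and proximal c with sham b 0.25. Deviations were taken from the group mean, so those of a, b and c cancel within each group. Because b and c were so alike, the other correlations largely follow from the 0.297 of proximal a with sham a. They are not separate evidence. That array a stood apart in a related way in both groups rests on this value of 0.297. Named genes were the 12 largest rises and falls without overlap, 4 per list by smallest p, the largest differences between hours and a set of known injury genes; further members were named after their values were seen. The members and gene lists were chosen with earlier results of these data known. The fit was run on simulated data with independent normal noise. Those data hold no arrays as alike as b and c, so they cannot show how that likeness affects the calls. Promoters came from RefSeq (GRCr8). Alternatives changed the filter, normalization, weights, probe sets, arrays fitted, controls, trend, blocks and arrays left out. The distal lesion and the hours before 18 h were not compared on their own. Their arrays entered the choice of probe sets, the filter, the spread, the pairs of arrays and the technical sets. Sham arrays of those hours were also part of the pooled sham, and list levels by hour cover proximal and sham arrays.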

Additional observations from a re-analysis of the deposited data

Results flagged for a closer look

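The proximal effect at 28 h was more positive than that at 24 h by 3.17 log2 units for Ubd and by 2.15 for Saa3 (limma interaction, adjusted p = 0.0431 for both). Against 18 h, whose arrays lay in other technical sets, the excess passed the test for 15 genes. It was 3.19 for Ubd (adjusted p = 0.0331), 2.7 for S100a9 (adjusted p = 0.0283) and 2.56 for Slpi (adjusted p = 0.0415). The other 12 shared an adjusted p of 0.0476. Among the immune genes the excess was 3.65 for Ifit3, 2.17 for Irf7, 2.14 for Mx1, 2.0 for RT1-S3, 1.92 for Saa3 and 1.69 for Fcgr3a. It was 2.58 for Klf9, a Krüppel-like factor, 1.27 for Sgk1, a kinase, 1.35 for Ptges, which makes prostaglandin E, and 1.04 for Tgm1, a transglutaminase. LOC100910973 exceeded its 18 h effect by 1.72 and Ecel1, the neuronal endopeptidase, by 0.971. Klf9 differed by -1.45 at 18 h and by 1.13 at 28 h, where it was not called (adjusted p = 0.133) except with array weights, the replicate block (adjusted p = 0.0312) or only the 6 arrays fitted (adjusted p = 0.0107). The dimmer probe set of Klf9 differed by 0.38 at 28 h (unadjusted p = 0.186, limma). Sgk1 differed by -0.56 at 18 h and 0.71 at 28 h, and RT1-S3 by -0.55 and 1.46. Both counts were 0 when any 1 array other than proximal a was left out.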

How the results depend on the processing

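The 549 called genes (378 higher, 171 lower, 160 at least 2-fold) became 159, 133, 26 and 98 with b and c averaged and 54, 53, 1 and 45 in proximal array a alone, both chosen after seeing the data. They were 1605, 674 higher and 931 lower with only the 6 arrays fitted, 1151, 753 and 398 against all sham arrays pooled, and 1099, 585 and 514 with the technical set as a block. Array weights, whose estimation did not converge, gave 4388, 1828 and 2560. Another quantile normalization gave 305 lower genes and a fit of proximal and sham arrays 104. With the letter as a replicate block 1065 genes were called, 599 higher and 466 lower; no call of a named gene was lost, those of Cxcr2, Glul, Klf9, Rbfox3, Sprr1a and Vim were gained, and b arrays correlated better with c than with b. Leaving out 1 array gave 270 to 557 called, 200 to 409 higher, 66 to 148 lower and 119 to 223 at least 2-fold. The causes were not tested. The 2 genes that differed from 24 h and the 15 from 18 h became 4 and 37 (quantile), 4 and 62 (replicate block), 193 and 1236 (weights), 4 and 71 (technical set), 0 and 1 (every probe set), and 0 and 2 (filter at the 50th percentile). Without a variance trend 7 differed from 18 h. Both were 0 with only the arrays compared, with proximal and sham arrays only, with b and c averaged and in array a alone (limma, 17 to 324 genes at an unadjusted p under 0.05 against 24 h and 164 to 479 against 18 h). Leaving out 1 array gave 0 to 65 and 0 to 85. In array a alone the difference turned negative for Rsad2 (-0.32), Isg15 (-0.23), C3 (-0.15), Oasl (-0.13), Tap1 (-0.10), Ifit2 (-0.10), Sp110 (-0.052), LOC100910973 (-0.033), B2m (-0.024), RT1-S3 (-0.019) and Irf7 (-0.013). Against pooled sham Nfkbia turned to -0.21, and other probe sets gave 0.13 for Oprk1 and -0.054 for Psme1. Of 162 named genes 77 kept their side of the threshold with b and c averaged and 105 to 150 with 1 array left out. Of 53 other probe sets of these genes 27 gave the same call and 23 were no longer called. Fold changes of dim genes are limited by signal over background, and 3 arrays a group limit the precision.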
